A study of Mus musculus with 28 samples.

Results

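Nuclei that stained for the HA tag of a Cas9 vector were compared with nuclei of the same hemisphere that did not, in mouse motor cortex injected with the vector called empty. The libraries were chosen by their labels alone, and 14 of the 28 libraries of the series belonged to this comparison, 7 of HA-positive and 7 of HA-negative nuclei. Both came from the left hemispheres of 7 mice, numbered 17 to 23 in the sample titles, so that each animal gave 1 library of either kind. Per the labels, the adeno-associated virus (AAV) vector for Cas9, named for miR-124 with the ending empty, had been placed there by stereotactic injection. The right hemisphere of every animal had received the vector with the ending g4, and tissue without a vector is not among these groups. Cortex was fixed, frozen and homogenised, and the nuclei were stained with a DNA dye and an antibody against the HA tag and sorted. HA-positive nuclei are listed as positive for Cas9. The labels do not give the strain, age or sex of the mice, the AAV serotype or the promoter that drove Cas9. The comparison asks which cell types of the cortex the sorted Cas9-positive nuclei came from.

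AAV vectors carry a gene into the nucleus of the cells they enter, and which cells make its product depends on the capsid, the promoter and the site of injection. The cortex holds excitatory projection neurons, which release glutamate, and GABAergic interneurons, which inhibit their neighbours and fall into classes marked by parvalbumin, somatostatin, the peptide VIP and Lamp5. Around them lie astrocytes, myelin-forming oligodendrocytes and their precursors, and microglia, the resident immune cells. RNA of nuclei holds unspliced and noncoding transcripts that a whole-cell sample would hold at a lower share.

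Raw counts per gene summed to 248612 to 662396 in the HA-positive libraries and 430964 to 824276 in the HA-negative ones. HA-positive libraries had 8687 to 12778 genes with a count, against 11745 to 13263. Ribosomal RNA took 19.6 to 39.0% and 21.8 to 38.1% of the counts. The correlation of log values between replicates had a median of 0.727 among HA-positive and 0.851 among HA-negative libraries. Transcripts of the Y chromosome, or the X-inactivation RNA Xist, matched between both libraries of each of the 7 animals. Animals 17 to 20 had Y-linked counts and 0 counts of Xist, the pattern of males. Animals 21 to 23 had 124 to 1012 counts of Xist and at most 2 Y-linked counts, the pattern of females. The vector's own transcript was not analysed here. The fractions were deposited in separate tables, so any difference in how those tables were made and the difference between fractions cannot be told apart. Levels are given as CPM, the counts scaled to a common library size, and a gene is said to rise or fall where HA-positive libraries were above or below HA-negative ones at an adjusted p under 0.05 in edgeR's quasi-likelihood test. Fold changes are log2 values ± standard error (SE).

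Transcripts of the GABA, parvalbumin and somatostatin lists stood higher in HA-positive nuclei. The VIP list gave 2 rises and 2 falls, and the Lamp5 list 2 rises. Transcripts of oligodendrocytes, microglia and striatal projection neurons stood lower. Called genes of layers 5 and 6 were few and mostly falls. Bcl11b and Pcp4 are also striatal genes, and the part that striatal tissue had in the falls of either layer was not tested. Most excitatory and pan-neuronal genes were not called. Of 5538 genes with enough counts to be tested, 194 rose (3.50%) and 194 fell (3.50%), together 7.01%. All HA-positive libraries lay above all HA-negative ones for 1.26% of the tested genes, and below them for 1.77%. Counts within the lists below are to be read against these shares. The falls were larger, with 47 of them past 4-fold against 9 of the rises. Of the rises 139 had the same direction in all 7 animals, and of the falls 154. Leaving out animal 19 gave 122 rises and 129 falls. With the animal as a block in the model 2.78% of the tested genes rose and 3.07% fell, and by DESeq2 4.51% in either direction. Without the HA-positive libraries of animals 17, 21 and 22, the 3 with fewer than 10000 genes, 3.14% rose and 4.28% fell. In these bulk samples fewer nuclei of a type and less RNA per nucleus cannot be told apart.

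**Figure D1:**
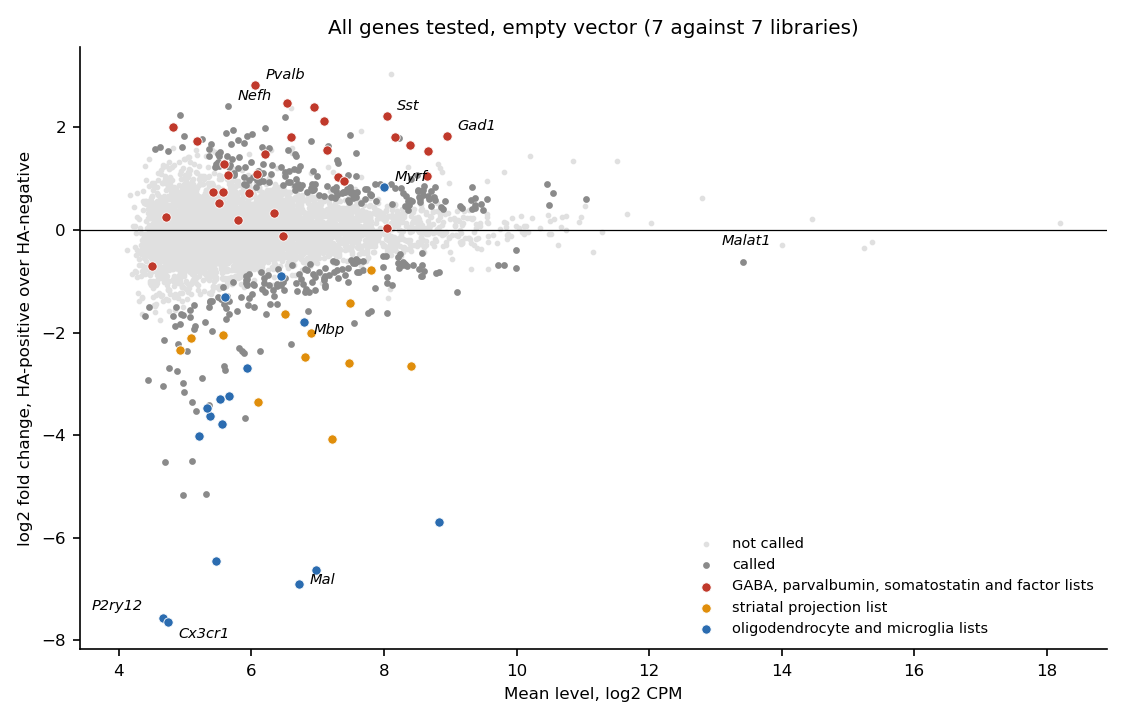
Each of the 5538 genes tested with the empty vector is a point, placed by its mean level over 14 libraries (log2 CPM, horizontal) and its log2 fold change of HA-positive over HA-negative nuclei (vertical). Members of the GABA, parvalbumin, somatostatin and interneuron factor lists (red) lie mostly above 0, with Pvalb highest among the called genes at 2.82, and oligodendrocyte and microglia members (blue) reach below -6, except Myrf at 0.83 (fitted values of genes at 0 in a fraction depend on the prior count).

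The genes that make, load and degrade GABA were higher in HA-positive nuclei in every animal. Gad1 and Gad2 encode the enzymes that make GABA from glutamate, Slc32a1 the transporter that loads it into vesicles and Abat the enzyme that degrades it. Of the 8 genes in this list 6 had enough counts to be tested, and 5 rose, these 4 among them, while 0 fell, in a comparison in which 3.50% of all tested genes rose. The median log2 fold change of the 6 was 1.30, against 0.01 over all tested genes. Aldh5a1 had 0.73 ± 0.28 (adjusted p 0.134), and the transporters Slc6a11 and Slc6a13 were too low to test.

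Gad1 (ENSMUSG00000070880, chromosome 2, 70553072 to 70602014, GRCm38) was at 584 to 1301 CPM (median 624) in the HA-positive libraries and 126 to 310.2 CPM (median 223) in the HA-negative ones. The lowest HA-positive library lay above the highest HA-negative one, which 70 of the tested genes showed (1.26%). The log2 fold change was 1.83 ± 0.18 (adjusted p 8.15e-08, higher in 7 of 7 animals). Slc32a1 was at 131 to 269 CPM (median 229.7) against 41.4 to 123 CPM (median 53.2), with 1.57 ± 0.24 (adjusted p 3.54e-05). Its groups did not overlap. Gad2 was at 441 to 751 CPM (median 511) against 182 to 308 CPM (median 278), also without overlap, with 1.06 ± 0.15 (adjusted p 1.04e-05). Abat had 0.95 ± 0.19 (adjusted p 0.00131), and its groups overlapped although it was higher in 7 of 7 animals.

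Summed over all 8 members, the GABA genes reached 2013 to 3364 CPM (median 2393) in HA-positive libraries and 802 to 1087 CPM (median 948) in HA-negative ones, a ratio of means of 2.62, with no overlap. The HA-positive library of animal 17 was highest, at 3364 CPM. The ratio within an animal ran from 2.20 to 3.55.

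**Figure D2:**
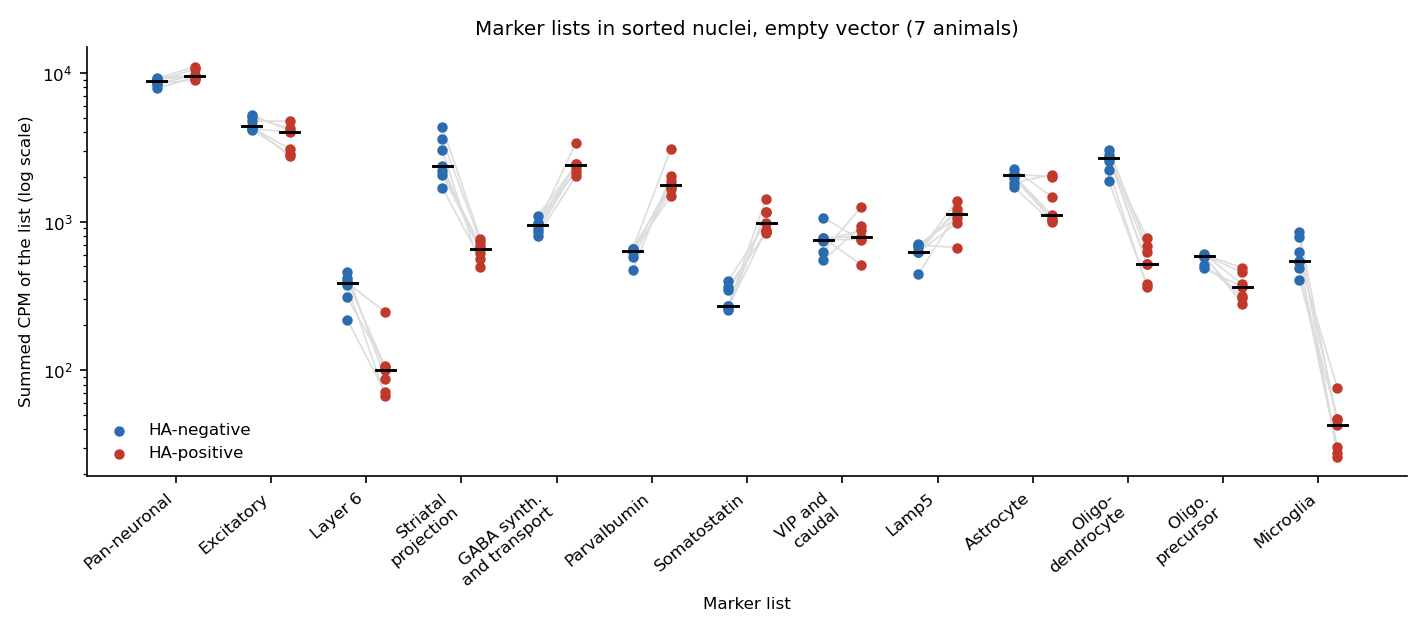
Summed CPM of 13 marker lists (log scale) in the HA-negative (blue) and HA-positive (red) libraries of 7 animals, with a grey line joining the libraries of 1 animal and a black bar at the median. GABA, parvalbumin and somatostatin sums are higher in all 7 HA-positive libraries than in any HA-negative one, and striatal, oligodendrocyte and microglia sums are lower.

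Parvalbumin interneurons fire fast and inhibit the cell bodies of their targets. The marker list held 16 genes, of which 9 could be tested. Of these 6 rose and 0 fell, where 3.50% of all tested genes rose. The median log2 fold change of the 9 was 1.81. All 6 rises were free of overlap between fractions, where 1.26% of all tested genes were higher without overlap. Only 6 of the 9 would have passed the filter on low counts in the HA-negative libraries alone, so these counts are a description. Pvalb (ENSMUSG00000005716, chromosome 15, 78191114 to 78206400), the calcium-binding protein the class is named for, had the largest log2 rise among all called genes. It was at 60.8 to 206 CPM (median 115) in HA-positive and 0 to 35.4 CPM (median 17.3) in HA-negative libraries, with 2.82 ± 0.43 (adjusted p 6.10e-05, higher in 7 of 7 animals). The HA-negative libraries held 60 counts of it in all, so their level is the less certain.

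Syt2, a fast calcium sensor for vesicle release, was at 85.4 to 385 CPM (median 215) against 16.8 to 64.3 CPM (median 41.9), with 2.40 ± 0.31 (adjusted p 3.96e-06). Ank1, an ankyrin that anchors membrane proteins to the cytoskeleton, was at 107 to 269 CPM (median 139) against 17.7 to 35.2 CPM (median 26.8), with 2.48 ± 0.25 (adjusted p 5.44e-08). Kcnc1, a potassium channel that ends action potentials quickly, was at 301 to 594 CPM (median 440.4) against 88.0 to 157 CPM (median 132), with 1.82 ± 0.17 (adjusted p 7.47e-09). For each of these 3 genes the lowest HA-positive library stood above every HA-negative one. Erbb4, the neuregulin receptor of interneurons, had 1.66 ± 0.18 (adjusted p 1.69e-07) and Btbd11 1.81 ± 0.27 (adjusted p 2.27e-05). The members that did not pass were Tac1 at 0.33 ± 0.47, Slit2 at 0.53 ± 0.33 and Il1rapl1 at 0.20 ± 0.30 (adjusted p 0.41 to 0.79). Summed over the 16 members, the list stood at 1486 to 3088 CPM (median 1754) in HA-positive and 469 to 659 CPM (median 634) in HA-negative libraries. The ratio of means was 3.19, and the HA-positive library of animal 17 was again highest, at 3088 CPM.

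Somatostatin interneurons target the dendrites of excitatory neurons. Of their 16 listed genes 6 could be tested, and 5 rose and 0 fell. Only 2 of the 6 would have passed the filter on low counts in the HA-negative libraries alone, so this count is a description. Sst (ENSMUSG00000004366, chromosome 16, 23889573 to 23890958), the peptide gene itself, was at 258 to 603 CPM (median 436) in HA-positive and 56.8 to 120.1 CPM (median 91.6) in HA-negative libraries, with 2.22 ± 0.19 (adjusted p 2.55e-09). Npy, a peptide shared by somatostatin and neurogliaform cells, was at 139 to 328 CPM (median 179) against 25.1 to 79.7 CPM (median 57.1), with 2.12 ± 0.26 (adjusted p 8.82e-07). Both genes were higher in every animal, with no overlap between fractions.

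Elfn1, a postsynaptic protein of these cells, had 1.73 ± 0.44 (adjusted p 0.0119) and was higher in 6 of 7 animals. Grin3a, an NMDA receptor subunit, had 1.48 ± 0.33 (adjusted p 0.00409), and Nxph1, a neurexin ligand, 1.10 ± 0.30 (adjusted p 0.022). In animals 17, 18 and 20 Grin3a was at 52.3, 59.9 and 73.9 CPM in HA-positive and 39.0, 52.8 and 64.5 CPM in HA-negative libraries, closer than in the other 4. Nxph1 lost its call with the animal as a block (adjusted p 0.0533) and without animal 17, 19, 20 or 23 (adjusted p 0.0827 to 0.0986), and Elfn1 without animal 19 or 23 (adjusted p 0.0695 to 0.0877). Nos1 was not called, at 0.75 ± 0.42 (adjusted p 0.338), and passed without the 3 libraries of fewer genes (1.24, adjusted p 0.0185). A further 10 members, Cort and Chodl among them, were too low to test. The 16 members summed to 837 to 1428 CPM (median 986) in HA-positive and 253 to 397 CPM (median 272) in HA-negative libraries. The ratio of means was 3.37, the highest of the interneuron lists.

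The lists of the classes marked by VIP and by Lamp5 gave 2 rises each. Of 16 genes in the list of VIP cells and other interneurons of caudal origin, 9 could be tested, 2 rose and 2 fell (median 0.49). Vip itself was at 3.97 to 90.4 (median 11.2) CPM in HA-positive libraries and 11.8 to 51.2 (median 29.3) in HA-negative ones, with 0.35 ± 0.52 (adjusted p 0.792). The HA-positive values fell into separate levels. Animals 18, 20 and 21 had 70.7 to 90.4 CPM, above all HA-negative libraries, and the other 4 had 3.97 to 11.2 CPM, below all of them. The sign of its fold change turned without animal 20 (-0.075) and with the animal as a block (-0.12). Cck, a peptide of basket cells and of many excitatory neurons, was at 8.84 to 191 CPM (median 131) against 65.0 to 113 CPM (median 99.9) and was not called (adjusted p 0.69).

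Cnr1, the cannabinoid receptor of Cck basket cells, rose by 0.72 ± 0.19 (adjusted p 0.0191), and lost its call with the animal as a block (adjusted p 0.0567) and without animal 18, 19, 20, 22 or 23 (adjusted p 0.0531 to 0.157). Igf1, a growth factor made by interneurons and by glia, rose by 1.61 ± 0.44 (adjusted p 0.0202), with the call lost without animal 19, 22 or 23 (adjusted p 0.0517 to 0.0928). The 2 falls were Penk, which is also a striatal gene and is described with those, and the serotonin receptor gene Htr2c at -1.64 ± 0.48 (adjusted p 0.0325). Htr2c lost its call with the block (adjusted p 0.0544), without the 3 libraries of fewer genes (adjusted p 0.0576) and without animal 17, 19, 20, 21 or 22 (adjusted p 0.0546 to 0.0879). The list summed to 512 to 1257 CPM (median 793) in HA-positive and 549.7 to 1065 CPM (median 756) in HA-negative libraries, and it was higher in 5 of 7 animals.

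Of 12 genes in the Lamp5 and neurogliaform list 8 could be tested, and 2 rose and 0 fell. These were Npy and Reln, the extracellular protein reelin, which was at 135 to 426 CPM (median 311) against 121 to 214 CPM (median 155), with 0.89 ± 0.19 (adjusted p 0.00321, higher in 6 of 7 animals). Lamp5 was at 19.8 to 207 CPM (median 44.9) against 29.7 to 78.4 CPM (median 46.1) and was not called (adjusted p 0.383). It was above every HA-negative library in animals 18, 20 and 22 and below every one in animals 19 and 23. The receptor gene Kit had 0.99 ± 0.33 (adjusted p 0.0678), and passed without animal 17 at 1.18 (adjusted p 0.0346). The 12 members summed to 669 to 1373 CPM (median 1126) in HA-positive and 446 to 702 CPM (median 624) in HA-negative libraries, higher in 6 of 7 animals with a ratio of means of 1.73. Npy and Nos1 are on the somatostatin list as well, so the sums of both lists are not independent. Npy had a mean of 223 CPM in HA-positive and 49.8 CPM in HA-negative libraries.

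**Figure D3:**
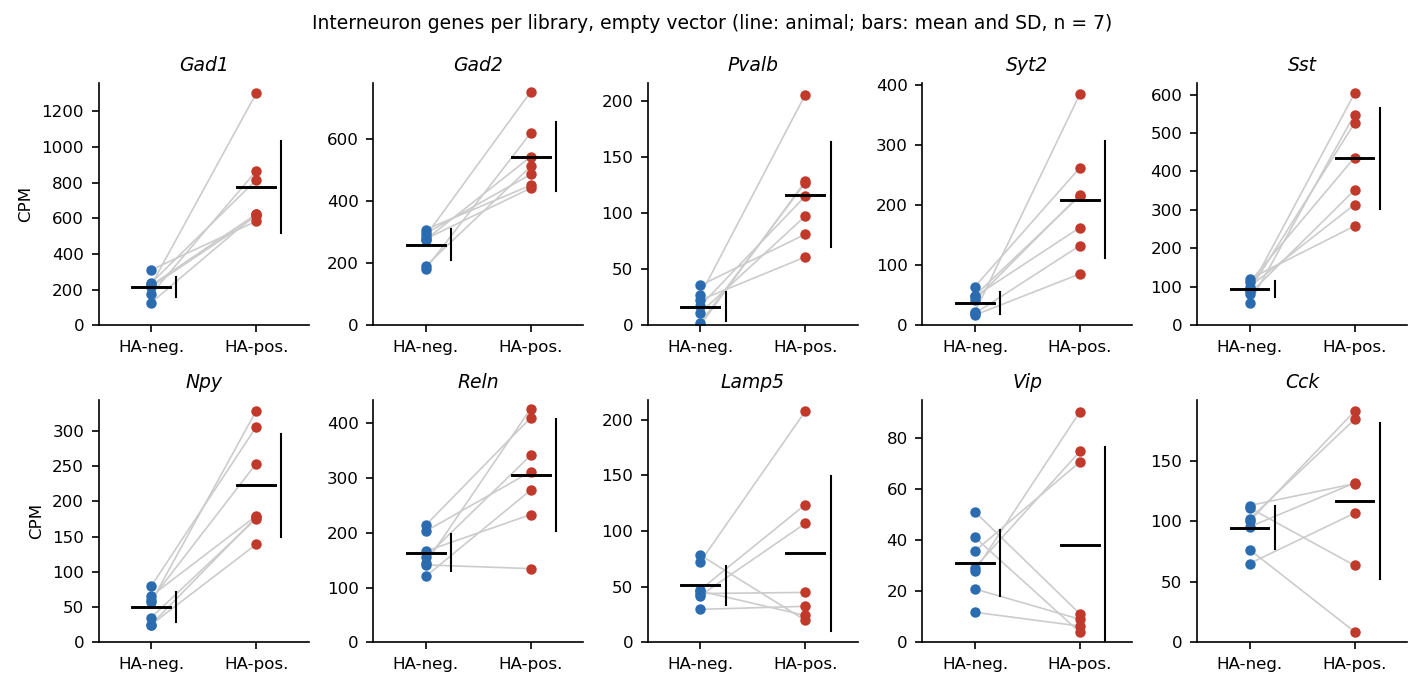
CPM of 10 interneuron genes in the HA-negative (blue) and HA-positive (red) libraries, with a line for each of the 7 animals and black bars for the mean and SD (n = 7). Gad1, Gad2, Pvalb, Syt2, Sst and Npy are higher in every HA-positive library than in any HA-negative one, whereas Vip in HA-positive libraries lies either at 70.7 CPM or above or at 11.2 CPM or below.

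Transcription factors that specify interneurons were tested in 9 of 22 cases, and 3 rose and 0 fell (median 0.75). Only 3 of the 9 would have passed the filter on low counts in the HA-negative libraries alone, so this count is a description. The chromatin organiser Satb1 had 1.03 ± 0.19 (adjusted p 0.000606) and the factor Maf 1.28 ± 0.34 (adjusted p 0.0183), whose call was lost without animal 17, 19 or 20 (adjusted p 0.0659 to 0.0883). Without the filter on low counts, a fit in which 1.31% of 17753 genes rose and 2.41% fell, Lhx6 and Npas1 rose as well. Lhx6, the factor of parvalbumin and somatostatin cells, had 99 counts over the HA-positive and 29 over the HA-negative libraries, a log2 fold change of 2.26 (adjusted p 0.00376). Npas1 had 62 against 5 counts and 3.76 (adjusted p 0.00127). In that fit St18 fell at 0 against 52 counts, a factor that is also on the oligodendrocyte list.

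Genes of fast firing and of its axon differed in both directions, with more rises than falls. Of 27 listed genes 24 were tested, and 8 rose and 3 fell (median 0.31). The channel genes of the Kv3 family, which let neurons fire at high rates, were among the rises: besides Kcnc1, Kcnc2 was at 186 to 481 CPM (median 271) against 58.6 to 130.0 CPM (median 118), with 1.50 ± 0.23 (adjusted p 3.35e-05). Hcn2, a pacemaker channel, had 0.90 ± 0.27 (adjusted p 0.0377), lost with the animal as a block (adjusted p 0.0861), without the 3 libraries of fewer genes (adjusted p 0.198) and without animal 17, 18, 19, 20, 21 or 22 (adjusted p 0.0549 to 0.137). Scn1a, the main sodium channel of interneurons, rose by 1.08 ± 0.16 (adjusted p 2.79e-05) and Kcna2, an axonal potassium channel, by 0.77 ± 0.16 (adjusted p 0.00178). Ank1, given with the parvalbumin genes, rose as well.

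The 3 falls were channel subunits too. Scn4b, a sodium channel subunit that is abundant in striatum, was at 14.8 to 79.6 CPM (median 23.5) in HA-positive and 97.5 to 299 CPM (median 149) in HA-negative libraries, without overlap, with -2.22 ± 0.36 (adjusted p 9.89e-05). The potassium channel gene Kcna4 had -1.98 ± 0.47 (adjusted p 0.00644), or -2.58 without animal 22, and the sodium channel gene Scn3a -1.07 ± 0.30 (adjusted p 0.0211), the latter lost without animal 18, 19 or 21 (adjusted p 0.0675 to 0.134). Scn2a and Scn8a, sodium channels of many neurons, were not called, at -0.42 ± 0.14 and 0.33 ± 0.12 (adjusted p 0.0586 and 0.0933). Scn2a passed without animal 18, at -0.50 (adjusted p 0.0445), by DESeq2 (adjusted p 0.0386) and by limma voom.

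In the release machinery 5 of 26 tested genes rose and 2 fell, with 28 listed. Vamp1, the vesicle fusion protein of fast synapses, was at 179 to 448 CPM (median 284) in HA-positive and 28.0 to 121 CPM (median 75.5) in HA-negative libraries, with 1.86 ± 0.23 (adjusted p 1.42e-06), and its groups did not overlap. Cplx1, a complexin that clamps release, rose by 1.55 ± 0.28 (adjusted p 0.00191). Among the vesicle proteins of the Sv2 family, Sv2a rose by 0.45 ± 0.13 (adjusted p 0.0353), Sv2b fell at -0.69 ± 0.16 (adjusted p 0.00535) and Sv2c fell at -1.47 ± 0.38 (adjusted p 0.0139). Sv2a lost its call without animal 17, 19, 20 or 23 (adjusted p 0.0824 to 0.165), and Sv2c without animal 19 or 21 (adjusted p 0.062 to 0.0878), while without animal 22 it stood at -2.18. Reads of Syt2 and Vamp1 may be shared with the coding genes Ppp1r12b, Tapbpl and Cd27, whose annotated spans overlap theirs, since no source used here gives the strand setting of the counting. For the same reason some counts are uncertain of AU040320, Ano3, B2m, Cnp, Csf1r, Cx3cr1, Ermn, Foxp1, Glul, Gpr34, Grin3a, Lrrc8a, Nefm, P2ry12, Pcp4, Pde10a, Rarb, Sv2c, Syt6 and Tspan2, which also overlap annotated coding genes.

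Of 12 neurofilament and axonal genes 11 were tested, and Nefh and Kif5a rose. Nefh, the heavy neurofilament chain, was at 57.6 to 112 CPM (median 87.7) against 8.41 to 39.4 CPM (median 12.2), with 2.41 ± 0.36 (adjusted p 2.38e-05) and no overlap. Its partner Nefm did not pass, at 0.52 ± 0.27 (adjusted p 0.295). The motor protein gene Kif5a had 0.64 ± 0.14 (adjusted p 0.00322).

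Receptor genes gave few calls, and genes for peptides and granule cargo gave 6 among 16 tested. Of 10 tested genes for AMPA, kainate and delta receptors 0 rose and 0 fell by edgeR, 2 had an unadjusted p under 0.05, and DESeq2 called 1 lower, Grik2 (adjusted p 0.0426). Gria2, the subunit that keeps calcium out, had -0.37 ± 0.12 (adjusted p 0.0742), and passed without animal 22 at -0.43 (adjusted p 0.0366). Gria4 had 0.34 ± 0.22. Grin3a alone rose among 4 tested NMDA receptor genes. Of 11 tested GABA-A receptor genes 1 rose and 0 fell, and 7 had an unadjusted p under 0.05. The 15 listed genes summed to 1810.0 to 2445 CPM (median 1917) in HA-positive and 1479 to 1899 CPM (median 1673) in HA-negative libraries, higher in 6 of 7 animals. Of the peptide and granule genes 5 rose and 1 fell: besides Sst, Npy, Nxph1 and Penk these were the granins Vgf, at 0.85 ± 0.19 (adjusted p 0.00481), and Scg2, at 0.74 ± 0.20 (adjusted p 0.0177), the latter lost without animal 17, 18 or 23 (adjusted p 0.0691 to 0.109).

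The perineuronal net is a matrix of proteoglycans around parvalbumin cells. Of 17 listed genes 6 were tested, 1 rose and 2 fell. Hapln4, a link protein of the net, rose, at 72.3 to 209 CPM (median 115) in HA-positive and 37.1 to 76.3 CPM (median 50.5) in HA-negative libraries, with 1.24 ± 0.26 (adjusted p 0.00166). Versican (Vcan), made by oligodendrocyte precursors, fell, at 0 to 35.4 CPM (median 3.97) in HA-positive and 22.6 to 98.5 CPM (median 53.1) in HA-negative libraries, with -2.75 ± 0.60 (adjusted p 0.00322), or -3.88 without animal 21. Ptprz1, a receptor phosphatase of glia, had -1.20 ± 0.28 (adjusted p 0.00668). The core proteins Ncan and Bcan were not called, at -0.47 ± 0.24 and -0.42 ± 0.47, and Acan was too low to test.

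Leading genes on no list were Minar1, at 2.24 ± 0.49, the vesicle GTPase gene Rab3b, at 2.21 ± 0.26, the kinase gene Nek7, at 1.99 ± 0.33, the mannosidase gene Man1c1, at 1.95 ± 0.30, and the anion channel gene Lrrc8a, at 1.89 ± 0.46 (adjusted p 6.25e-07 to 0.00834). Rab3b was at 90.4 to 213 CPM (median 157) against 23.5 to 41.4 CPM (median 30.8), and Man1c1 at 71.4 to 95.9 CPM (median 86.0) against 11.2 to 31.4 CPM (median 23.5), both without overlap. Lrrc8a lost its call without the 3 libraries of fewer genes, at 1.11 (adjusted p 0.156).

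Genes shared by all neurons differed little. All 16 pan-neuronal genes were tested, and 3 rose and 0 fell (median 0.23). Thy1 and Stmn3 rose by 0.51 ± 0.14 and 0.99 ± 0.29 (adjusted p 0.0241 and 0.0319). Thy1 lost its call with the animal as a block (adjusted p 0.0573), without the 3 libraries of fewer genes (adjusted p 0.106) and without animal 17, 19, 21 or 23 (adjusted p 0.0698 to 0.11). Stmn3 lost it without those 3 libraries (adjusted p 0.125) and without animal 19, 21, 22 or 23 (adjusted p 0.0672 to 0.153). Snap25, a fusion protein of all synapses, had 0.21 ± 0.11, and Rbfox3, the gene of the nuclear marker NeuN, -0.31 ± 0.21 (adjusted p 0.309 and 0.45). The list summed to 9013 to 11060.0 CPM (median 9615) in HA-positive and 7879 to 9328 CPM (median 8771) in HA-negative libraries. Its ratio of means was 1.12, and it was higher in 7 of 7 animals.

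Excitatory neuron genes were mostly not called, and those that were had fallen. Of 20 listed genes 17 were tested, and 4 fell and 0 rose (median -0.50), against 3.50% of all tested genes in either direction. Slc17a7, the glutamate transporter of cortical synaptic vesicles, was at 157 to 397 CPM (median 282) in HA-positive and 259.7 to 465 CPM (median 322) in HA-negative libraries, with -0.35 ± 0.17 (adjusted p 0.268). Camk2a, the calcium-dependent kinase of excitatory synapses, was at 274 to 635 CPM (median 464) against 463 to 636 CPM (median 524), with -0.23 ± 0.15 (adjusted p 0.452). Both overlapped widely. Arpp21, a signalling protein of forebrain neurons, was at 67.3 to 260.1 CPM (median 179) against 249 to 515 CPM (median 349), with -1.06 ± 0.21 (adjusted p 0.00132, lower in 7 of 7 animals).

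The other falls were Nptx1, a secreted synapse organiser, at -1.12 ± 0.28, the scaffold gene Baiap2 at -0.88 ± 0.25, and Sv2b (adjusted p 0.0102, 0.0258 and 0.00535). Nptx1 lost its call without the 3 libraries of fewer genes (adjusted p 0.0557) and without animal 19 (adjusted p 0.0596), and Baiap2 without animal 18, 19, 21 or 23 (adjusted p 0.0714 to 0.104). Nrgn, a calmodulin-binding protein of excitatory dendrites, was lower in 7 of 7 animals at -0.56 ± 0.19, with an adjusted p of 0.068, and of 0.00974 with the animal as a block. Summed over 20 members, the list stood at 2744 to 4739 CPM (median 3999) in HA-positive and 4153 to 5206 CPM (median 4398) in HA-negative libraries, lower in 7 of 7 animals with a ratio of means of 0.802. How far striatal tissue in the HA-negative libraries bears on the falls of this list was not tested.

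Among genes that mark cortical layers, calls were few in the upper layers and were mostly falls in layers 5 and 6. Of 15 upper-layer genes 8 were tested, 1 rose and 1 fell. The 15 summed to 670.5 to 1227 CPM (median 923) in HA-positive and 637 to 816 CPM (median 694) in HA-negative libraries, higher in 6 of 7 animals with a ratio of means of 1.30. Rasgrf2, a layer 2 exchange factor, rose, at 135 to 359 CPM (median 277) in HA-positive and 58.6 to 185 CPM (median 114) in HA-negative libraries, with 1.05 ± 0.25 (adjusted p 0.00822), lost without the 3 libraries of fewer genes (adjusted p 0.094) and without animal 22 (adjusted p 0.0533). Cux2, a factor of upper layers, had 0.67 ± 0.28 (adjusted p 0.158), and Rorb of layer 4 -0.82 ± 0.42 (adjusted p 0.279). Rorb was at 100.2 CPM in the HA-positive library of animal 21 and at most 29.9 in the other 6. Without animal 21 it had -1.56 (adjusted p 0.0108), and without the 3 libraries of fewer genes -1.89 (adjusted p 0.00126). Enpp2, which oligodendrocytes also make, fell at -0.89 ± 0.27 (adjusted p 0.0414), lost with the block (adjusted p 0.066) and without animal 17, 19, 20, 21 or 23 (adjusted p 0.0684 to 0.156).

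Of 18 layer 5 genes 5 were tested, 1 rose and 2 fell. The 18 summed to 316 to 666 CPM (median 395) in HA-positive and 592 to 949 CPM (median 667) in HA-negative libraries, lower in 7 of 7 animals with a ratio of means of 0.615. Bcl11b, the factor of subcerebral projection neurons that striatal neurons also use, was at 17.1 to 59.8 CPM (median 34.1) in HA-positive and 73.0 to 162 CPM (median 80.4) in HA-negative libraries, without overlap, with -1.50 ± 0.29 (adjusted p 0.000836). Pcp4, a calmodulin-binding peptide of deep layers and striatum, had -1.81 ± 0.26 (adjusted p 1.76e-05). The part that striatal tissue had in these 2 falls was not tested. Parm1 rose by 1.08 ± 0.26 (adjusted p 0.00775), lost without animal 17 (adjusted p 0.0571).

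Of 18 layer 6 genes 17 were in the tables, 4 were tested and 3 fell, and 0 of the 4 would have passed the filter in the HA-positive libraries alone. Foxp2, a forkhead factor of corticothalamic neurons, was at 0 in 5 of the HA-positive libraries. It was at 24.2 CPM in animal 19 and 17.7 in animal 21, against 22.4 to 88.0 CPM (median 68.0) in HA-negative libraries, with -3.53 ± 0.65 (adjusted p 0.000564). Syt6 was at 0 to 26.2 CPM (median 3.97) against 37.2 to 100.1 CPM (median 58.6), with -3.36 ± 0.55 (adjusted p 8.98e-05), or -4.23 without animal 17, and no overlap. The corepressor gene Tle4 had -1.39 ± 0.38 (adjusted p 0.0198), lost without animal 19, 20 or 23 (adjusted p 0.0635 to 0.07). The 17 genes summed to 67.4 to 248 CPM (median 100.5) in HA-positive and 219 to 455 CPM (median 387) in HA-negative libraries. The mean was 3.25-fold lower in HA-positive nuclei, and animal 21 had the highest HA-positive value, at 247.6 CPM. Whether striatal tissue had a part in the layer 6 falls was not tested.

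Transcripts of striatal projection neurons, which lie beneath the cortex and are also GABAergic, were present in the HA-negative libraries and low in the HA-positive ones. Of 22 listed genes 12 passed the filter on low counts and fell. Only 3 of the 12 would have passed it in the HA-positive libraries alone, so the count is a description. Pde10a (ENSMUSG00000023868, chromosome 17, 8525372 to 8986648), their phosphodiesterase, was at 69.5 to 124 CPM (median 96.2) in HA-positive and 297 to 974 CPM (median 614) in HA-negative libraries, with -2.66 ± 0.22 (adjusted p 2.55e-09). The adenylate cyclase gene Adcy5 had -2.60 ± 0.39, the enkephalin gene Penk -2.49 ± 0.43 and the dopamine receptor gene Drd1 -2.05 ± 0.44 (adjusted p 0.000322, 0.00097 and 0.00284). None of these 4 genes overlapped between fractions, where 1.77% of all tested genes were lower without overlap.

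Rgs9, Rarb, Gng7, Pde1b, Meis2, Foxp1 and Ano3 were the other falls, from -3.36 for Rgs9 to -0.78 for Ano3. Without animal 23 Rgs9 stood at -3.99, without animal 19 Rarb at -2.98, and without the 3 libraries of fewer genes Drd1 at -2.99. Meis2 lost its call without those 3 libraries (adjusted p 0.149). Adora2a, the adenosine receptor of the indirect pathway, and Gpr6 were at 0 in all 7 HA-positive libraries, against 93 and 63 counts in HA-negative ones. Set against 3 counts over the group, they were at least 22.2-fold and 15.0-fold lower. Without the filter on low counts 19 of the 22 fell, among them Ppp1r1b, the phosphoprotein of dopamine signalling, at -4.80. The dopamine receptor gene Drd2 had 2 counts over the HA-positive and 114 over the HA-negative libraries, 40.8-fold lower in HA-positive nuclei with a 95% counting interval of 11.0 to 340.5. The 22 genes summed to 493 to 766 CPM (median 651) in HA-positive and 1686 to 4314 CPM (median 2379) in HA-negative libraries. The mean was 4.26-fold lower in HA-positive nuclei. The tissue is labelled motor cortex, and the part that striatal tissue had in the HA-negative values was not tested.

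**Figure D4:**
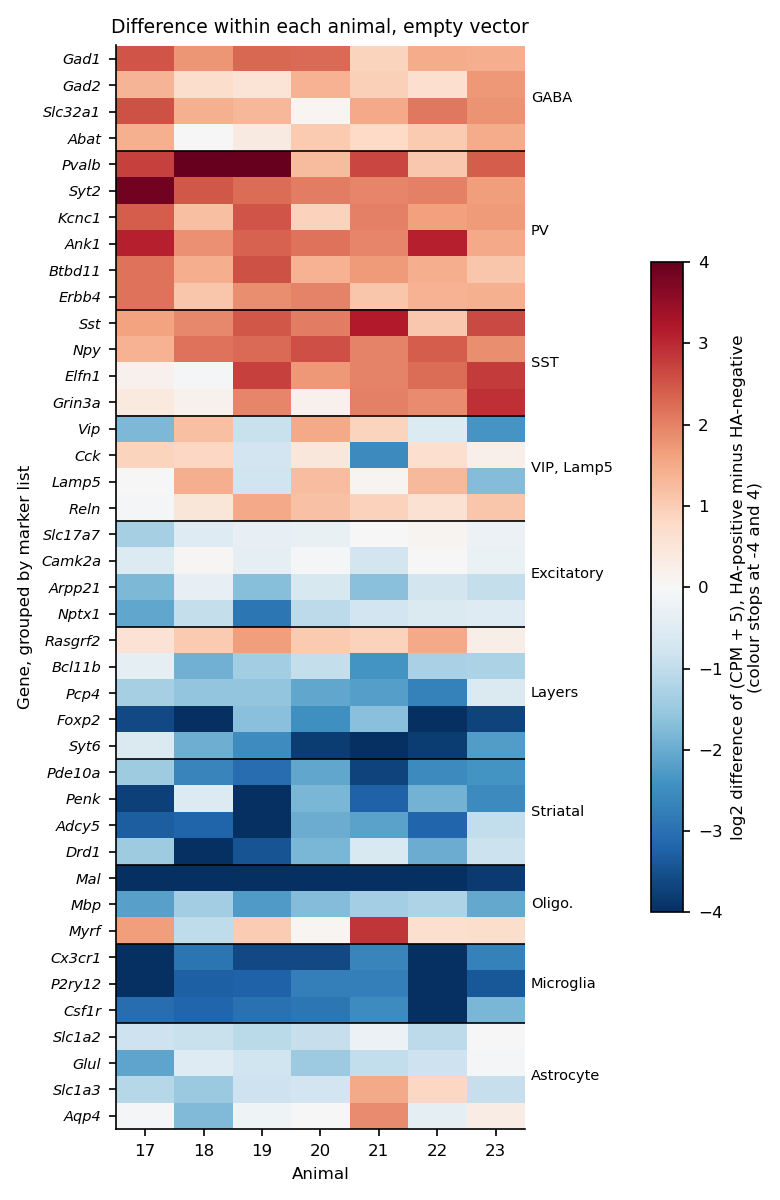
Colour gives the log2 difference of CPM + 5 between the HA-positive and HA-negative libraries of each animal (columns) for 41 genes (rows, grouped by marker list). All animals are above 0 for Gad1, Pvalb and Sst and below 0 for Mal, Cx3cr1 and P2ry12, while Vip runs from -2.36 to 1.53 and Myrf from -1.01 to 2.87.

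Most oligodendrocyte genes were low in HA-positive nuclei, while a few were present in every HA-positive library. Of 24 listed genes 12 were tested, 11 fell and 0 rose. Only 3 of the 12 would have passed the filter in the HA-positive libraries alone, so the count is a description. Mal (ENSMUSG00000027375, chromosome 2, 127633226 to 127656695), a membrane protein of myelin, was at 0 to 7.93 CPM (median 0) in HA-positive and 125 to 286 CPM (median 220.0) in HA-negative libraries, with -6.91 ± 0.44 (adjusted p 2.23e-12). Trf, the gene of an iron carrier, was at 0 in 5 HA-positive libraries, with -6.62 ± 0.49 (adjusted p 7.48e-10). Without animal 17, which had the highest HA-positive value of Trf, it stood at -8.46, and without animal 23 Mal stood at -7.64. Cldn11, a tight junction gene of myelin, had 2 counts over the HA-positive and 332 over the HA-negative libraries, which is 119-fold lower in HA-positive nuclei with a 95% counting interval of 32.6 to 984 (adjusted p 1.43e-09). None of these 3 genes overlapped between fractions.

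Mbp, myelin basic protein, fell, at 29.9 to 70.7 CPM (median 43.6) in HA-positive and 121 to 209 CPM (median 167) in HA-negative libraries, with -1.79 ± 0.23 (adjusted p 1.92e-06). Enpp2, given with the layer genes, was at 23.8 to 104 CPM (median 45.3) against 76.3 to 153 CPM (median 107), also above 0 in every HA-positive library. Cnp, Mobp, Ermn and Ugt8a had -2.68, -3.46, -4.02 and -3.63, all without overlap. Mobp stood at -4.71 without animal 21, and Mobp and Ermn at -5.66 and -5.09 without the 3 libraries of fewer genes. Tspan2 fell by 1.31 on the log2 scale, lost without animal 17, 19 or 23 (adjusted p 0.0624 to 0.118). Opalin was at 0 in all HA-positive libraries and at least 11.9-fold lower. Mag, too low for the main test, had 3 counts over the HA-positive libraries and 183 over the HA-negative ones, 43.6-fold lower in HA-positive nuclei with a 95% counting interval of 14.7 to 213.

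Myrf, the transcription factor that turns on myelin genes, went the other way without passing the test. It was at 141 to 509.9 CPM (median 351) in HA-positive and 65.5 to 289.5 CPM (median 171) in HA-negative libraries, with 0.83 ± 0.34 (adjusted p 0.178), and was higher in 6 of 7 animals. Animal 18 was the one in which it was lower. Without animal 18 it passed, at 1.11 (adjusted p 0.0172), and also without the filter on low counts (adjusted p 0.00588). No other gene of the list had a higher mean in HA-positive nuclei. The 24 genes summed to 362 to 778 CPM (median 519.9) in HA-positive and 1862 to 3045 CPM (median 2683) in HA-negative libraries, 4.62-fold lower by the mean.

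Leading falls on no list were Apod, an apolipoprotein of oligodendrocytes, at -5.16 ± 0.62, Anln at -5.17 ± 0.58, Ndrg1 at -4.52 ± 0.63 and the prostaglandin synthase gene Ptgds at -4.50 ± 0.57 (adjusted p 2.71e-07 to 9.76e-06). Each was at 0 in at least 4 HA-positive libraries. Without animal 23 Apod, Ndrg1 and Ptgds stood at -6.77, -5.60 and -5.22, and without animal 22 Anln at -6.45. Without the 3 libraries of fewer genes Apod, Ndrg1 and Anln stood at -4.51, -3.87 and -6.17.

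Precursor genes were too low to test for the most part, with 4 of 16 tested and 1 called, Vcan. Without the filter 8 of 16 fell and 0 rose, against 2.41% of all genes in that fit. Pdgfra, the growth factor receptor of precursors, had 7 counts over the HA-positive and 127 over the HA-negative libraries, with -3.58 (adjusted p 7.12e-05). Enpp6 and Neu4 were at 0 in HA-positive libraries and at least 19.1-fold and 8.58-fold lower.

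Microglial genes were low or at 0 in HA-positive nuclei. Of 20 listed genes 5 passed the filter on low counts, 0 of which would have passed it in the HA-positive libraries alone, so their falls are given as a description. Cx3cr1, the fractalkine receptor, and P2ry12, a purine receptor of resting microglia, were at 0 in all 7 HA-positive libraries, against 26.0 to 99.9 (median 56.1) and 28.0 to 84.7 (median 43.0) CPM in HA-negative ones. They were at least 44.1-fold and 44.6-fold lower. Csf1r, the receptor for the survival factor of microglia, was at 0 to 19.8 CPM (median 6.42) against 56.1 to 144 CPM (median 83.7), with -3.78 ± 0.44 (adjusted p 5.91e-07). The protease gene Ctss had -3.24 ± 0.45 (adjusted p 9.76e-06), or -3.96 without animal 21. Gpr34, Siglech and C1qc were also at 0 in HA-positive libraries, with 100, 85 and 74 counts in HA-negative ones, and without the filter 14 of the 20 genes fell. The list summed to 26.2 to 75.4 CPM (median 42.6) in HA-positive and 407 to 855 CPM (median 546) in HA-negative libraries, 14.3-fold lower by the mean and the lowest ratio of the lists in the plot of sums.

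Astrocyte genes were lower only in part. Of 20 listed genes 10 were tested, 2 fell and 0 rose (median -0.35). Slc1a2, the glutamate uptake transporter of astrocytes, was at 535 to 1123 CPM (median 605) in HA-positive and 928 to 1258 CPM (median 1135) in HA-negative libraries, with -0.68 ± 0.14 (adjusted p 0.0015, lower in 7 of 7 animals). Glul, glutamine synthetase, had -0.90 ± 0.26 (adjusted p 0.0275), lost without the 3 libraries of fewer genes (adjusted p 0.0615) and without animal 17, 19, 20 or 21 (adjusted p 0.0712 to 0.104). Slc1a3, the other astrocyte transporter, was at 36.4 to 309 CPM (median 57.5) against 88.6 to 131 CPM (median 105), with -0.04 ± 0.36. The water channel gene Aqp4 had 0.27 ± 0.43 (adjusted p 0.967 and 0.8). Without the 3 libraries of fewer genes Slc1a3 fell, at -1.02 (adjusted p 0.00549).

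The HA-positive libraries did not form 1 level here. The 20 genes summed to 2075 CPM in animal 21 and 2007 in animal 23, within the HA-negative range of 1708 to 2265, and to 996.5 to 1467 in the other 5. Animal 21 also had the highest HA-positive values of Slc1a3 and Aqp4, 309 and 133 CPM, both above every HA-negative library. Apoe, a lipid carrier of astrocytes and microglia and the single testable gene of 16 for reactive glia, fell, at 16.4 to 51.2 CPM (median 37.4) in HA-positive and 62.6 to 207 CPM (median 109) in HA-negative libraries, with -1.63 ± 0.30 (adjusted p 0.000377).

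Cells of vessels, ventricles and blood were hardly measured. Of 16 endothelial genes 1 could be tested, Bsg, which neurons also express, at 0.48 ± 0.25. Of 16 mural and fibroblast, 10 ependymal and choroid and 18 macrophage and lymphocyte genes 0 passed the filter on low counts. Without the filter 0 of the mural and ependymal genes were called, and 1 macrophage and lymphocyte gene fell, the coreceptor gene Cd4. It was at 0 in HA-positive libraries with 51 counts in HA-negative ones, at least 12.2-fold lower (adjusted p 0.00132). Ptprc, the gene of the leukocyte antigen CD45, had 3 against 27 counts, 6.43-fold lower in HA-positive nuclei with a 95% counting interval of 1.98 to 33.1 (adjusted p 0.211). The 18 macrophage and lymphocyte genes summed to 8 counts over the HA-positive and 89 over the HA-negative libraries, lower in 7 of 7 animals.

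**Figure D5:**
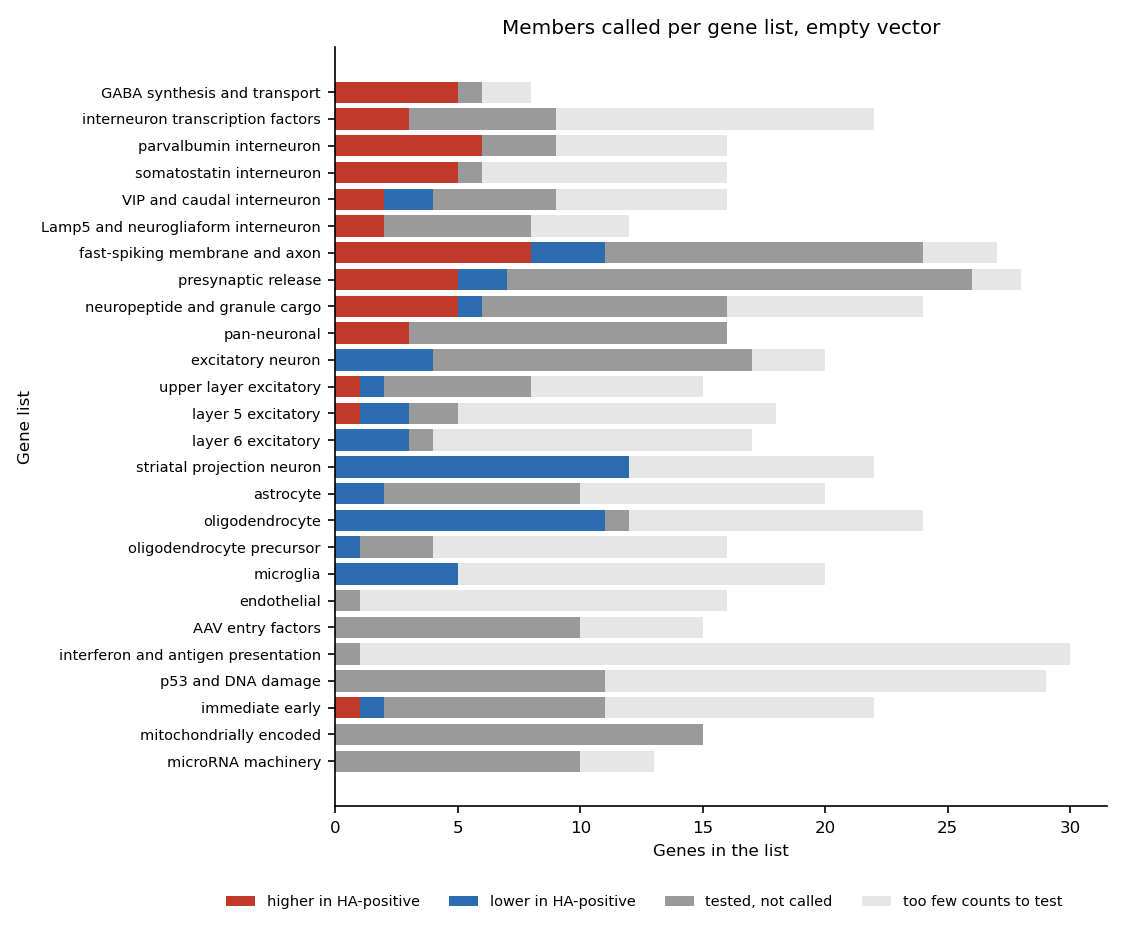
Bars give, for 26 gene lists, the number of members that were higher (red) or lower (blue) in HA-positive nuclei, that were tested and not called (dark grey) or that had too few counts to test (light grey). Red marks 8 genes of the fast-spiking list, 6 of the parvalbumin list and 5 each of the GABA, somatostatin, presynaptic and neuropeptide lists, and blue marks 12 genes of the striatal, 11 of the oligodendrocyte and 5 of the microglia list.

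Host factors for AAV entry and genes of the p53 and DNA damage response were not called in the main test. Interferon genes were mostly too low to test. Of 15 host factors for AAV entry 10 were tested, and 0 rose and 0 fell by edgeR, DESeq2 or limma voom, with 0 at an unadjusted p under 0.05. AU040320, the gene of the AAV receptor, was at 31.7 to 132 CPM (median 58.9) in HA-positive and 30.8 to 84.7 CPM (median 48.7) in HA-negative libraries, with 0.37 ± 0.32 (adjusted p 0.598). Of 29 genes of the p53 and DNA damage response 11 were tested and 0 were called by edgeR or DESeq2 (1 at an unadjusted p under 0.05), with Mdm2 at -0.65 ± 0.46, and Cdkn1a was too low to test. Without the 3 libraries of fewer genes 1 of them fell, Sesn1, a stress-induced gene, at -2.11 (adjusted p 0.0155). Of 10 tested genes of the microRNA machinery 0 were called by either (1 at an unadjusted p under 0.05), with Dicer1 at -0.62 ± 0.31.

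Of 30 interferon and antigen presentation genes only B2m could be tested, at -0.42 ± 0.51 (adjusted p 0.719). Without the filter, a fit in which 1.31% of all genes rose, 2 interferon-induced genes of the 30 rose at low counts. Ifit2 had 78 counts over the HA-positive and 20 over the HA-negative libraries and was higher in 6 of 7 animals, with 2.27 (adjusted p 0.0228). Ifit1 had 25 against 2 counts, 17.5-fold higher in HA-positive nuclei with a 95% counting interval of 4.36 to 152 (adjusted p 0.0419), and its highest value, 47.6 CPM, was in animal 23. The whole list summed to 337.2 CPM in the HA-positive library of that animal and to 57.7 to 197.5 in the other 6, against 80.3 to 158 CPM (median 104) in HA-negative libraries. In the same fit H2-K1, a class I antigen gene, was at 0 in HA-positive libraries with 23 counts in HA-negative ones.

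Immediate early genes, which neurons switch on when active, gave 1 rise and 1 fall among 11 tested. Egr1 fell, at 198 to 316 CPM (median 242) in HA-positive and 306 to 481 CPM (median 417) in HA-negative libraries, with -0.70 ± 0.14 (adjusted p 0.00137), and Vgf, named above, rose. The 22 listed genes summed to 982 to 1711 CPM (median 1091) in HA-positive and 1449 to 1751 CPM (median 1494) in HA-negative libraries, lower in 7 of 7 animals with a ratio of means of 0.804. Fos had 0.28 ± 0.40 and Arc -0.55 ± 0.22 (adjusted p 0.776 and 0.146). Of the 15 mitochondrially encoded genes 0 were called by edgeR or DESeq2 (1 at an unadjusted p under 0.05), with mt-Co1 at 0.32 ± 0.12. The ribosomal RNA gene mt-Rnr1 rose with the animal as a block and without animal 20, at 0.52 and 0.65 (adjusted p 0.0472 and 0.0212), and mt-Nd1 and mt-Co1 rose without the 3 libraries of fewer genes, at 0.42 and 0.34 (adjusted p 0.0104 and 0.0478). Among 11 tested nuclear noncoding RNAs Oip5os1, also known as Cyrano, rose by 0.63 ± 0.15 (adjusted p 0.00614), and Malat1, a RNA of nuclear speckles, fell, at 6018 to 10980.0 CPM (median 9315) in HA-positive and 9572 to 18556 CPM (median 13773) in HA-negative libraries, with -0.62 ± 0.15 (adjusted p 0.00775). Both lost their call without animal 19 (adjusted p 0.0621 and 0.0503).

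The right hemispheres of the same animals, injected with the g4 vector, gave 7 HA-positive and 7 HA-negative libraries of their own for the same comparison. In 1 of them, HA-positive nuclei of animal 19, there were 591 counts of Xist together with 44 of Y-linked genes, which no other library of animals 17 to 20 did, so values without it are given as well. With it, 208 of 6264 tested genes rose (3.32%) and 193 fell (3.08%). Without it 242 rose (3.80%) and 265 fell (4.16%). Of the 388 genes called with the empty vector 195 were called in the same direction with g4, 50.3% of the empty calls and 48.6% of the 401 g4 calls, and 0 in the opposite direction. Without that library 228 were shared.

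Interneuron genes stood side by side as follows. Gad1 had 1.83 ± 0.18 with the empty vector, 1.67 ± 0.19 with g4 and 1.76 ± 0.17 with g4 without the library of animal 19. In the same order Pvalb had 2.82 ± 0.43, 2.30 ± 0.36 and 2.46 ± 0.33, and Sst 2.22 ± 0.19, 2.10 ± 0.19 and 2.18 ± 0.18. In the parvalbumin list 6 of 9 tested genes rose in each of the 3 fits, and in the somatostatin list 5 of 6 with the empty vector, 6 of 7 with g4 and 5 of 6 with g4 without that library. Vip, not called with the empty vector at 0.35 ± 0.52, had 1.33 ± 0.28 with g4 (adjusted p 0.00212) and 1.31 ± 0.30 without that library (adjusted p 0.00298). Reln, at 0.89 ± 0.19 with empty, had 0.19 ± 0.17 and 0.25 ± 0.18 (adjusted p 0.658 and 0.487). Hapln4 had 1.24 ± 0.26, 0.16 ± 0.27 and 0.10 ± 0.29. The difference between vectors did not pass for these 3 genes (adjusted p 0.996, 0.924 and 0.924).

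The g4 values of glial genes moved with the library of animal 19. With it 9 of the 24 listed oligodendrocyte genes and 6 of the 20 microglial genes fell, and without it 15 and 8, against 11 and 5 with the empty vector. Of the 22 striatal genes 11 fell with it and 13 without it, against 12. Mal had -6.91 ± 0.44 with the empty vector, -2.63 ± 0.65 with g4 and -4.32 ± 0.31 with g4 without that library. P2ry12 had -3.22 ± 0.54 and -4.88 ± 0.49 with g4, while with the empty vector it was at 0 in HA-positive nuclei. Slc1a2, which fell by 0.68 on the log2 scale with the empty vector, had -0.05 ± 0.16 with g4 and -0.06 ± 0.17 without that library.

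Over all 28 libraries the difference between vectors in this comparison was tested for 7197 genes, and 0 passed by edgeR, with the animal as a block or by DESeq2 (359 genes had an unadjusted p under 0.05 by edgeR). The gene with the smallest p was Oip5os1, with 0.63 ± 0.15 for the empty vector, -0.24 ± 0.12 for g4 and a difference of -0.85 ± 0.19 (adjusted p 0.414). A gene called with 1 vector and not the other is therefore not shown to differ between them.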

How the data were processed

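Nuclear RNA of 28 libraries from 7 mice was measured by RNA sequencing, and the 14 libraries of the empty vector enter the main comparison, HA-positive against HA-negative. The deposited values are raw read counts per Ensembl gene, in 1 table per fraction, and the build is GRCm38 per the submitters' processing notes. Which aligner and counting program were used, with which strand setting, and whether molecular identifiers were counted is not given in the sources used here. The tables list 41550 entries each. One entry that names no gene holds 0 counts and was left out, and missing values were read as 0. For 3 animals the table columns carry a number that is 1 higher than the title, and fractions were joined by the title's animal.

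Genes were filtered by group with filterByExpr and tested in R 4.3.3 by edgeR 4.0.16 (quasi-likelihood F test, TMM scaling), with Benjamini-Hochberg adjustment over all 5538 genes that passed. CPM are TMM-scaled on effective library sizes. Raw totals of 248612 to 824276 counts limit the precision for low genes, and the filter kept few markers of rare cells. RNA input is given only as a range in picograms, the same for every library, and its part in these limits was not tested. The fit was tested on simulated counts. Of genes simulated at a log2 change of -1 or 1, 24.6% and 38% were called in that direction. At -2 and 2 the shares were 95.9% and 95.5%, and 0.11% of unchanged genes were called. A gene that was not called is therefore not shown to be equal between fractions. DESeq2 1.42.0, limma 3.58.1, other scalings and filters, the animal as a block and leaving out each animal were alternatives, and the fit of g4 without 1 library was chosen after seeing the data. Each animal gave both fractions, so the libraries are paired by source. Deviations of libraries of the same animal correlated by -0.005 to 0.050. Gene models are GENCODE M21, which matched 41474 of 41549 genes. A gene at 0 in all libraries of a fraction was set against a floor of 3 counts over that fraction, and a ratio with 1 to 3 counts has an exact 95% counting interval (Clopper-Pearson), for counting error only.

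The 36 gene lists, with 633 of 636 entries found, and the comparison were chosen with earlier results of these data known. Genes could be named if they were among the 12 largest rises or falls with at least 5 CPM in the higher group and the same direction in at least 6 of 7 animals. So could, in each list, the called members (the 6 of largest change if more), the 2 most abundant tested members and those at 0 in a fraction with at least 20 counts in the other, and the 4 genes of smallest p for the difference between vectors. Further list members were named after their values were seen. Some genes of the lists are not reported here.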

Additional observations from a re-analysis of the deposited data

Results flagged for a closer look

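The genes, list sums and library measures described gave 380 sets of 7 libraries. In 42 of them the highest or lowest library stood apart from the other 6 by more than Dixon's 95% limit. That limit is passed by chance in about 1 set in 20 only where values are normally distributed. Some sets rest on few counts, such as Drd2 with 2 over the HA-positive and Ifit1 with 2 over the HA-negative libraries. Sets without a count in any library could not stand apart. The share that chance gives here is therefore not known, and the 42 sets are a description. Of the 42 sets, 30 were in HA-positive and 12 in HA-negative libraries, and 13, 9 and 10 fell to animals 17, 21 and 23.

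Among HA-positive libraries, that of animal 17 was highest for the GABA list (3364 CPM), the parvalbumin list (3088 CPM) and the GABA-A receptor list (2445 CPM), and for Gad1 at 1301 and mt-Rnr1 at 3805 CPM. It was also highest for the ependymal list at 33.6 CPM, Syt6 at 26.2, Trf at 18.7, Pdgfra at 15.0 and Ptprc at 7.48 CPM, and lowest for Dicer1 at 11.2 CPM. Animal 19 was highest for Rarb at 30.2 CPM.

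The HA-positive library of animal 21 was highest for the layer 6 list (247.6 CPM), for Stmn3 at 298 CPM, Aqp4 at 133, Rorb at 100.2, Vcan at 35.4, and Ctss and Mobp at 32.4 CPM each. Animal 22 was highest for the p53 list (1040.0 CPM), Sv2c at 104 and Anln at 6.40 CPM. The library of animal 23 was highest for the neuropeptide list (3190.0 CPM) and the microglia list (75.4 CPM). It was also highest for Pcp4 at 179, Ifit1 at 47.6, Apod at 15.9, Ndrg1 and Ptgds at 11.9 each and Drd2 at 7.93 CPM.

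Among HA-negative libraries, animal 18 was highest for the immediate early list (1751 CPM). Animal 21 was highest for Penk (428 CPM) and Bcl11b (162 CPM), and animal 22 for Nefh (39.4 CPM) and Ifit1 (3.94 CPM). Animal 17 was lowest for Baiap2 (97.5 CPM) and highest for H2-K1 (29.2 CPM). Animal 20 was lowest for the Lamp5 list (445.6 CPM) and highest for Neu4 (42.0 CPM) and for ribosomal RNA (38.1% of counts), and animal 23 was highest for mt-Co1 (3481 CPM) and Minar1 (27.9 CPM).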

How the results depend on the processing

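No called gene named above changed direction under any alternative in which it was tested, and 66 of 92 kept their call under all of those. A gene that failed the filter in an alternative, such as Minar1 in a fit leaving out 1 animal, was not counted as lost there. Calls were lost leaving out 1 animal for 23 genes and without the 3 HA-positive libraries of fewer genes for 9, given with the genes. The replicate block, the animal, is fitted as a term: it gave 154 rises and 170 falls, ended 6 calls, for Thy1, Enpp2, Nxph1, Htr2c, Cnr1 and Hcn2, added Nrgn and mt-Rnr1, and changed no other call of the genes named. Leaving out 1 animal gave 122 to 183 rises and 129 to 188 falls, lowest without animal 19. Without the filter on low counts 233 genes rose and 428 fell of 17753. That fit shared 332 of the 388 main calls, and Thy1 and Malat1 were among the genes that lost theirs. All 28 libraries in 1 model gave 265 and 347 of 7197. DESeq2 gave 250 and 250, and limma voom 190 and 200, which ended the calls of Htr2c, Kcna4, Lrrc8a, Malat1, Tle4 and Tspan2. Upper-quartile scaling gave 158 and 227 and ended those of Hcn2, Sv2a and Thy1. The difference between vectors gave 2 higher and 1 lower without the filter.

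Signs turned for genes that were not called. Vip had -0.12 with the replicate block, and -0.075 (without animal 20) to 0.63 leaving out 1 animal. Aqp4 had -0.22 by limma voom, -0.35 (without animal 21) to 0.50 leaving out 1 animal and -0.77 without the 3 libraries of fewer genes, where AU040320 had -0.070. Cck and Tac1 had -0.0088 and -0.58 by limma voom. Leaving out 1 animal, Fos ran from -0.18 (without animal 19) to 0.61, and Slc1a3 from -0.60 (without animal 21) to 0.11. The cause was not tested. Leaving out 1 animal also called Neat1 and Gap43 lower without animal 21, Gabra2 lower without animal 20, and Grin2a higher without animal 23. The depth limits what could be tested: most markers of rare cells had too few counts.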

Other observations

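Some genes that were not called had a single HA-positive library far above all others, and they are named after their values were seen. Lrrc59, an endoplasmic reticulum protein, was at 2930 CPM in the HA-positive library of animal 21 and at 53.5 to 117 CPM in the other 6, against 14.0 to 110.2 CPM in HA-negative libraries. Its log2 fold change was 3.03 ± 1.06 (adjusted p 0.12), and 0.53 by DESeq2. Tmcc1 was at 1823 CPM in the HA-positive library of animal 22 and at 33.6 to 87.7 CPM in the other 6, against 39.1 to 120 CPM. Its log2 fold change was 1.93 ± 0.93 (adjusted p 0.286), and -0.34 by DESeq2.

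Of all genes in the tables, 95 were at 0 in every HA-positive library with 20 or more counts over the HA-negative ones, and 6 the other way round.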
